A study of Mus musculus with 4 samples.

Results

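Translation initiation factors are the proteins that bring a messenger RNA, the initiator tRNA and the small ribosomal subunit together at a start codon. Their genes were followed in RNA-seq libraries of mouse oocytes, and 50 of the 55453 genes of the table were taken by name. These were the symbols that begin with Eif and a family digit, without the eIF2 kinases Eif2ak1 to Eif2ak4, without Eif2s1, Eif2s3y and Eif4enif1, and without numbered pseudogenes. The rule uses names and no measured value, but it was chosen with earlier results of these data known. The annotation lists 48 of the 50 as protein coding. The others are Eif2c5, a long intergenic RNA with a count of 0 in every library, and Eif5al3-ps, a processed pseudogene with 7 and 5 counts in the knockdown libraries and 4 and 3 in the control libraries.

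The series holds 2 libraries of Parp12 knockdown oocytes and 2 of control oocytes, which the labels call wild type. Parp12 encodes an ADP-ribosyltransferase of the PARP family. In both groups the cells were separated directly from the ovary at the germinal vesicle stage, the prophase arrest that precedes meiotic maturation. The means of knockdown, the strain and age of the mice, the number of oocytes per library and whether replicates came from separate animals were not given in the sources used here. This comparison asks which RNAs differ in such oocytes when Parp12 is reduced.

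Initiation begins when the cap-binding protein eIF4E, the scaffold eIF4G and the helicase eIF4A assemble as eIF4F on the capped end of a messenger RNA. The large eIF3 complex links this assembly to the small subunit, on which eIF1 and eIF1A keep the scanning complex open and eIF2 holds the initiator tRNA. A fully grown oocyte makes almost no new RNA and matures on stored messages, so control of their translation stands in for control of transcription.

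The knockdown libraries held 42576499 and 35805122 counts, and the control libraries 45230773 and 40938363. Levels within a gene are given as CPM, its counts per 1000000 of the library. A gene with a count of 0 may still lie anywhere below 3 counts, which is 0.0663 to 0.0838 CPM depending on the library, and this limit covers counting error only. Parp12 had 32 and 86 counts in the knockdown libraries and 14279 and 9419 in the control libraries. All 15 oocyte markers were counted in every library, with a summed level of 36224 and 37724 CPM in the knockdown libraries and 34796 and 35925 CPM in the control libraries. Of 17 granulosa and cumulus markers, 8 were at 0 in all libraries and 4 were counted in all, with a summed level of 134.6 and 154.1 CPM in the knockdown libraries and 166.9 and 155.5 CPM in the control libraries. That sum was lower in both knockdown libraries, only slightly so in knockdown library 2, and its part in the results that follow was not tested. Most of it was Nr5a2, with 90.8 and 108.6 CPM in the knockdown libraries and 117.4 and 103.3 CPM in the control libraries. The groups overlapped for Nr5a2, and the sum does not stand for every marker. In bulk RNA, fewer cells of a type and less RNA per cell cannot be told apart, and since messenger RNA was isolated by its poly(A) tail, neither can the amount of a message and its capture.

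Initiation factor RNA was abundant in these oocytes and took nearly the same share of the counts in both groups. The 50 genes took 1.04% and 1.05% of all counts in the knockdown libraries and 1.02% and 1.04% in the control libraries. Levels between genes are given in TPM, computed from the counts and the summed exon length. The mean over the 4 libraries passed 100 TPM in 27 of the genes, and in 9.37% of the 21358 genes with any count. Of the 50, 47 passed the filter on low counts and were tested. Calls were made at 0.05 on p-values of edgeR's quasi-likelihood test, adjusted by Benjamini-Hochberg over the 15868 genes tested. By this rule 0 of the 47 were called, 0 higher (background 0.0%) and 0 lower (background 0.0063%, which is Parp12 alone). At an unadjusted p under 0.05 the count was 2 of 47 (4.26%), against a background of 5.51%. They were Eif3c, higher (background 2.94%), and Eif4g1, lower (background 2.57%). DESeq2 fitted 48 of the genes, gave 47 of them an adjusted p and called Eif3c as higher. Of the 21358 genes it fitted in all, it called 1.43%, and 0.819% as higher. That total includes low-count genes that edgeR's filter removed, so these shares are not those of genes as abundant as Eif3c. Limma-voom called 0 of the 15868 genes after adjustment, Parp12 and the 47 included. At an unadjusted p under 0.05 in limma-voom were 3 of the 47 (6.38%), against a background of 4.71%.

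**Figure D1:**
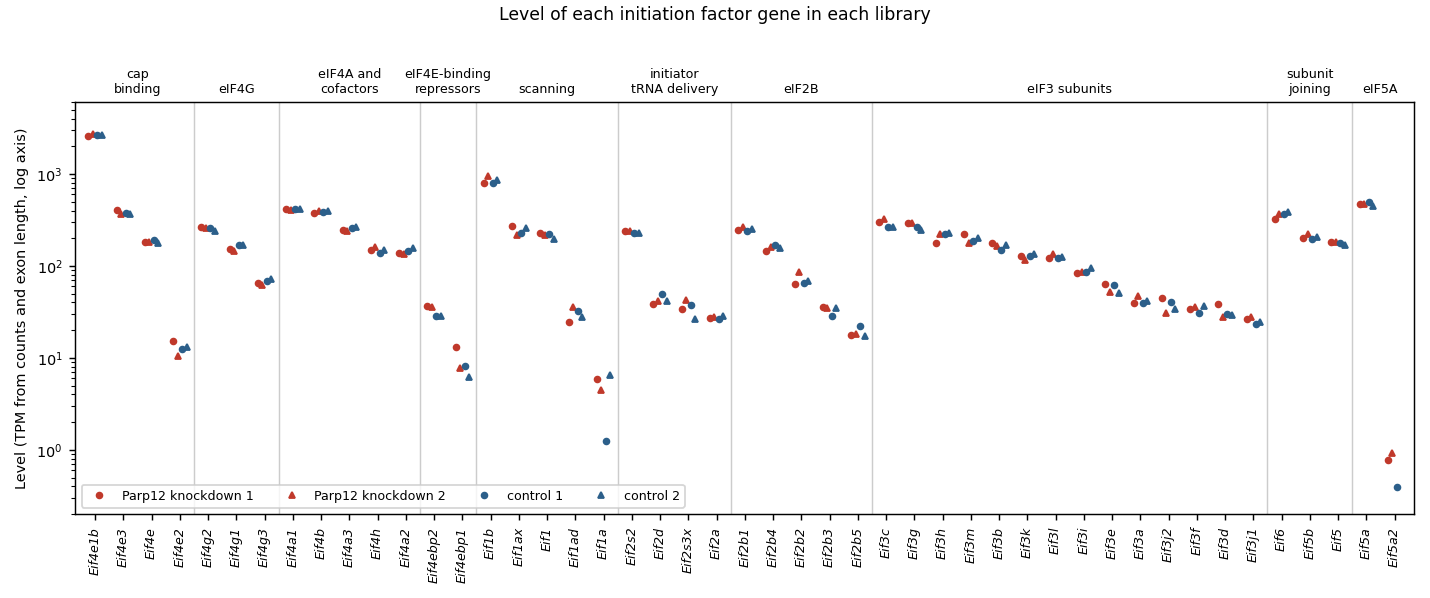
Level of each of the 47 tested initiation factor genes, in TPM on a log axis, grouped by role. Red points are the Parp12 knockdown libraries, blue points the control libraries, and a library at 0 (1 control library of Eif5a2) is not drawn. Eif4e1b stands highest, at 2638 TPM in knockdown and 2635 TPM in control oocytes on average.

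The errors of these abundant genes were narrow, but their intervals cover the spread of these libraries alone, which may be technical. A 95% interval that lay wholly within a 2-fold change in either direction was found for 44 of the 47 tested genes (93.6%), against 46.7% of all tested genes. These genes were also more abundant than most, and precision rises with the count: the median SE of a log2 fold change was 0.12 for them and 0.37 for all tested genes. Above a mean of 100 CPM, all 29 initiation factor genes had an interval within 1.5-fold, as did 97.8% of all genes at that level. Between 10 and 100 CPM, all 15 had one within 2-fold, as did 81.8% of all genes there. Eif1a, Eif4ebp1 and Eif5a2 were the 3 whose intervals reached past 2-fold. The median log2 fold change was 0.05 (quartiles -0.02 and 0.10) over the 47 genes and 0.00 (quartiles -0.23 and 0.27) over all tested genes. Both knockdown libraries lay above both control libraries in 8 of the 47 genes (17.0%, background 18.0%) and below both in 6 (12.8%, background 16.8%). In either direction that made 14 genes without overlap (29.8%, background 34.9%), of which 10 were among the 29 above 100 CPM (34.5%, background 38.6%).

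**Figure D2:**
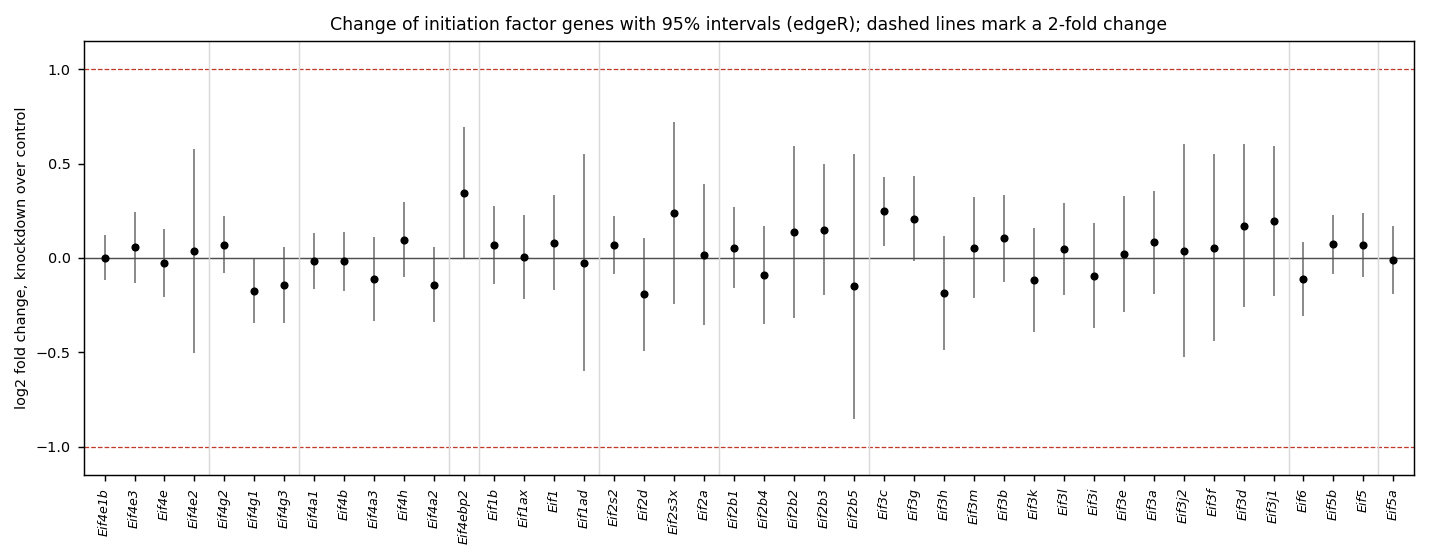
Log2 fold change of knockdown over control for each tested initiation factor gene, with its 95% interval from edgeR; dashed lines mark a 2-fold change. All intervals drawn lie between them, and Eif1a, Eif4ebp1 and Eif5a2 are left out because their intervals are wider than the axis.

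Most RNA of the cap-binding genes came from the oocyte form, and protein was not measured. Eif4e1b, the paralogue of Eif4e known for its expression in oocytes, had 1688 and 1783 CPM in the knockdown libraries and 1712 and 1750 CPM in the control libraries. The groups overlapped. On the log2 scale the difference was 0.00 with an SE of 0.06, and its 95% interval ran from -0.12 to 0.12. The gene lies on chromosome 13 of mm10, from 54783998 to 54788459 on the plus strand, and ranked 37th of all genes by TPM. Its general counterpart Eif4e had 318.1 and 318.7 CPM in the knockdown libraries and 335.4 and 310.9 CPM in the control libraries. Eif4e3, which also binds the cap, had 294.4 and 270.5 CPM in the knockdown libraries and 272.6 and 270.8 CPM in the control libraries, and had the smallest p of this group (edgeR adjusted p = 0.96). Eif4e2, a cap-binding protein known as a repressor that does not bind eIF4G, had 33.7 and 22.7 CPM in the knockdown libraries and 27.3 and 28.5 CPM in the control libraries. In each of the 4 the groups overlapped, as they did in most tested genes (34.9% had no overlap).

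Per exon length, Eif4e1b made up 82.0% ± 1.25 of cap-binding RNA in knockdown oocytes and 82.3% ± 0.517 in control oocytes (SD, n = 2 each). Eif4e3 made up 12.7% and 11.3% in the knockdown libraries and 11.7% and 11.5% in the control libraries. Eif4e made up 5.74% and 5.56% in the knockdown libraries and 6.02% and 5.51% in the control libraries. The order was thus the same in all 4 libraries, with Eif4e2 last at under 0.5%. Without division by length the share of Eif4e1b was 73.5% over the 4 libraries.

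**Figure D3:**
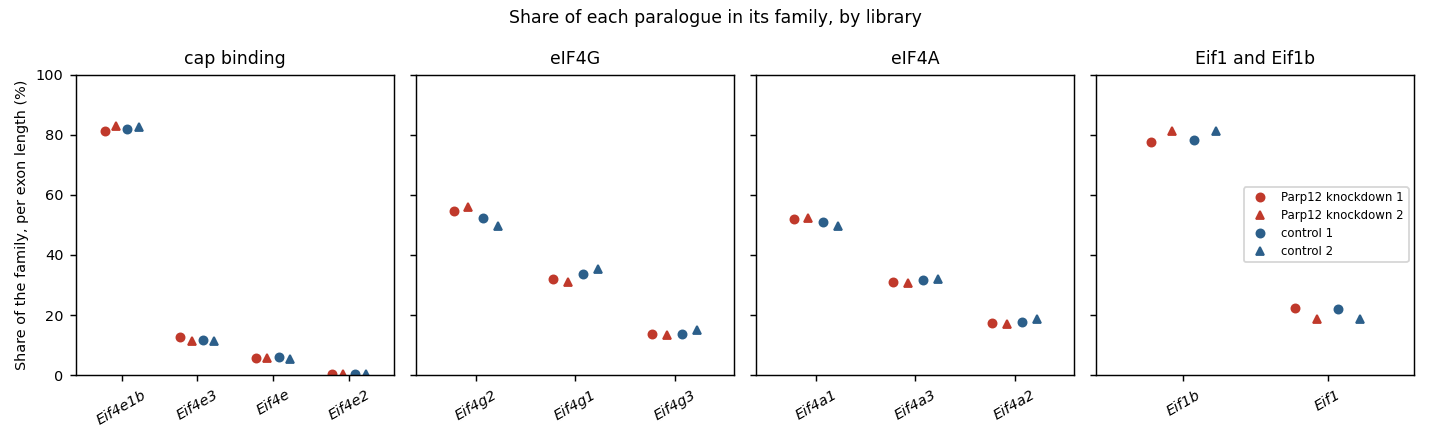
Share of each paralogue in the summed level of its family, in percent per exon length, for the cap-binding proteins, eIF4G, eIF4A, and Eif1 with Eif1b. Red points are knockdown and blue points control libraries. Eif4e1b is between 81.1% and 82.9% in all 4. The red and blue points do not overlap for any of the 3 eIF4G or the 3 eIF4A paralogues. A larger share of any paralogue lowers the others of its family, so these are not separate observations. In level, 34.9% of all tested genes had no overlap, and 38.6% of those above a mean of 100 CPM.

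None of the 3 scaffolds was called by edgeR (background 0.0063%) or DESeq2 (background 1.43%). The one with an unadjusted edgeR p under 0.05 was Eif4g1 (background 5.51%). Eif4g1, the main bridge between eIF4E, eIF4A and eIF3, had 326.3 and 306.2 CPM in the knockdown libraries and 355.2 and 357.8 CPM in the control libraries. Both knockdown libraries were below both control libraries, and the log2 fold change was -0.17 (SE 0.08; edgeR adjusted p = 0.835). Adjusted values over the alternatives ran between 0.122 and 0.994. Eif4g3, a second full-length scaffold, had 211.7 and 199.1 CPM in the knockdown libraries and 220.4 and 233.7 CPM in the control libraries. Eif4g2, known as DAP5, lacks the eIF4E-binding part and serves cap-independent initiation. It had 778.9 and 769.4 CPM in the knockdown libraries and 766.4 and 704.9 CPM in the control libraries. Its log2 fold change was 0.07 (SE 0.07), and this value was 0.15 without control library 1 and 0.00062 without control library 2.

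Eif4g2 took a larger share of eIF4G RNA per length in both knockdown libraries, 54.6% and 55.8%, against 52.4% and 49.7% in the control libraries. The share of Eif4g1 was 31.8% and 30.9% in the knockdown libraries, against 33.8% and 35.1% in the control libraries. The ratio of Eif4g2 to Eif4g1 was 1.76 ± 0.0639 in knockdown and 1.48 ± 0.0953 in control oocytes (SD, n = 2 each). The 2 groups did not overlap, and an exact two-sided permutation test over the 6 arrangements of 4 libraries cannot give a p below 0.333.

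The helicases and their cofactors all had intervals within 1.5-fold, 5 of 5. All lay above a mean of 100 CPM, where 97.8% of all genes had such an interval. Eif4a1, the main helicase that unwinds leader sequences, had 521.1 and 516.9 CPM in the knockdown libraries and 523.0 and 526.2 CPM in the control libraries. Eif4a2, its close paralogue, had 212.4 and 208.7 CPM in the knockdown libraries and 222.1 and 242.9 CPM in the control libraries, a log2 fold change of -0.14 (SE 0.09; edgeR adjusted p = 0.861). Eif4a3, the helicase of the exon junction complex rather than of eIF4F, had 151.9 and 148.1 CPM in the knockdown libraries and 158.7 and 165.3 CPM in the control libraries. All 3 were below both control libraries in both knockdown libraries, by small amounts that did not pass the test. The same held for 16.8% of all tested genes, and for 21.3% of those above 100 CPM. Per length Eif4a1 made up 51.9% and 52.3% of the 3 in the knockdown libraries and 50.9% and 49.6% in the control libraries. The helicase cofactors Eif4b and Eif4h had log2 fold changes of -0.02 (SE 0.07) and 0.10 (SE 0.09). Of the 50-base stretches of Eif4a1 transcripts, 28.4% also occur in other annotated genes, among them the pseudogene Eif4a-ps4.

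The eIF4E-binding repressors hold eIF4E away from eIF4G until they are phosphorylated by the kinase mTOR. Eif4ebp2 was the abundant one, with 62.1 and 60.9 CPM in the knockdown libraries and 48.0 and 48.8 CPM in the control libraries. Both knockdown libraries were above both control libraries. With an SE of 0.16, the log2 fold change of 0.34 had a 95% interval from -0.01 to 0.69. EdgeR gave an adjusted p of 0.835 and DESeq2 one of 0.114. Eif4ebp1 had 8.34 and 5.03 CPM in the knockdown libraries and 5.22 and 4.03 CPM in the control libraries, so the groups overlapped. Its log2 fold change was 0.55 with an SE of 0.52, and this value was 0.11 without knockdown library 1 and 0.84 without knockdown library 2. Per length, Eif4ebp2 was 73.9% and 82.1% of the repressors in the knockdown libraries and 77.8% and 82.1% in the control libraries. Eif4ebp3 had a count of 0 in every library.

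The scanning factors included the second most abundant gene of all initiation factors by TPM, Eif1b. It encodes a near copy of eIF1, the factor that holds the scanning ribosome open until a start codon is met. The coding sequences of Eif1b and Eif1 align over 339 bases at 81.1% identity, and their longest identical run is 25 bases. The first 120 bases of each, from GENCODE vM21 transcripts on GRCm38, are shown 5′ to 3′ because reads are assigned to one gene or the other by these differences; capitals mark the 19 bases that differ.
Eif1b (chromosome 9): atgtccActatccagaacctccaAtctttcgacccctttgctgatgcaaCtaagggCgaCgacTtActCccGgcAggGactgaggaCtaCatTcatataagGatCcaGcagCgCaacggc
Eif1 (chromosome 11): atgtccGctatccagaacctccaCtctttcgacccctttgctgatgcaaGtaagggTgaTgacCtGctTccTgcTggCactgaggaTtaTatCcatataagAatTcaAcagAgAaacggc
Over the whole transcripts, 4.20% of the 50-base stretches of Eif1b and 19.2% of those of Eif1 occur in other annotated genes.

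Eif1b averaged 868 ± 100 TPM in knockdown and 826 ± 32.6 TPM in control oocytes, and Eif1 averaged 223 ± 9.55 TPM in knockdown and 211 ± 19.4 TPM in control oocytes (SD, n = 2 each). In CPM, Eif1b had 261.6 and 308.2 in the knockdown libraries and 262.1 and 279.4 in the control libraries. Eif1 had 140.4 and 132.2 CPM in the knockdown libraries and 136.6 and 120.8 CPM in the control libraries. The groups overlapped for both genes. Eif1b thus made up 77.7% and 81.3% of the pair per length in the knockdown libraries and 78.2% and 81.2% in the control libraries. D830035M03Rik on the opposite strand overlaps 12.7% of the exons of Eif1b, and the use of strand in counting was not given in the sources used here.

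Eif1ax and Eif1a encode forms of eIF1A, which works with eIF1 in scanning. Eif1ax had 413.9 and 334.2 CPM in the knockdown libraries and 346.5 and 401.4 CPM in the control libraries, with a log2 fold change of 0.01 (SE 0.10). Eif1a had 7.26 and 5.47 CPM in the knockdown libraries and 1.53 and 8.01 CPM in the control libraries, so the control libraries lay farther apart than the knockdown libraries. Eif1ax made up 97.8% and 98.0% of the pair per length in the knockdown libraries and 99.5% and 97.5% in the control libraries. Eif1ad, which holds an eIF1A domain, had a log2 fold change of -0.02 (SE 0.27), and 15.3% of its exons are overlapped by Banf1 on the opposite strand.

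Of the 4 genes that deliver the initiator tRNA, 0 were called by edgeR (background 0.0063%) or DESeq2 (background 1.43%), with 0 at an unadjusted p under 0.05 in edgeR (background 5.51%). Eif2s2, the beta subunit of eIF2, had 469.7 and 474.1 CPM in the knockdown libraries and 450.1 and 449.3 CPM in the control libraries. The groups did not overlap, but the log2 fold change was 0.07 (SE 0.07; edgeR adjusted p = 0.941). Eif2d, a factor that can place tRNA on the ribosome without eIF2, had 82.5 and 90.0 CPM in the knockdown libraries and 105.5 and 90.3 CPM in the control libraries. Its log2 fold change of -0.19 (SE 0.14; edgeR adjusted p = 0.885) had the smallest p of the 4. It was -0.06 without control library 1 and -0.31 without control library 2. Eif2s3x, the X-linked gamma subunit, had 37.8 and 47.3 CPM in the knockdown libraries and 41.3 and 29.8 CPM in the control libraries. Of its 50-base stretches, 34.6% occur in other annotated genes. Eif2a, which encodes a separate tRNA-binding protein and not the alpha subunit of eIF2, had 48.2 and 50.1 CPM in the knockdown libraries and 46.5 and 50.6 CPM in the control libraries.

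The 5 subunits of eIF2B, which recharges eIF2 with GTP and is the target of the integrated stress response, overlapped between the groups in every case. Overlap was common, since only 34.9% of all tested genes had none. Eif2b1 was the highest, at 183.9 and 199.9 CPM in the knockdown libraries and 177.3 and 191.7 CPM in the control libraries. Eif2b3 had the smallest p (edgeR adjusted p = 0.941), with 67.5 and 66.0 CPM in the knockdown libraries and 54.0 and 66.7 CPM in the control libraries. Log2 fold changes of the 5 ran from -0.15 to 0.15. By TPM the subunits were unequal, with means over the 4 libraries from 18.9 TPM for Eif2b5 to 250.1 TPM for Eif2b1.

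The eIF3 complex held the one initiation factor gene that any method called. DESeq2 called it as 1 of the 48 it fitted (2.08%), against 1.43% of all genes it fitted. Eif3c, a core subunit that contacts eIF1 and the small ribosomal subunit, had 310.4 and 335.0 CPM in the knockdown libraries and 272.7 and 269.8 CPM in the control libraries. Both knockdown libraries were above both control libraries, at 1.19-fold on average (95% interval 1.05 to 1.35). The log2 fold change was 0.25 (SE 0.08), with an adjusted p of 0.835 in edgeR's quasi-likelihood test and of 0.0194 in DESeq2. Across all alternatives the adjusted p ran from 0.0194 to 0.994. With knockdown library 2 left out, the log2 fold change was 0.19 (SE 0.11; edgeR adjusted p = 0.899). The gene lies on chromosome 7 of mm10, from 126546455 to 126566411 on the minus strand, and 7.25% of its 50-base stretches occur in other annotated genes.

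Eif3g, an RNA-binding subunit, had 171.3 and 168.3 CPM in the knockdown libraries and 151.3 and 141.9 CPM in the control libraries, a log2 fold change of 0.21 (SE 0.10; edgeR adjusted p = 0.835). Of the 14 eIF3 genes, 11 had a log2 fold change above 0 and 3 below it, with a median of 0.06 and a range from -0.19 for Eif3h to 0.25 for Eif3c. Of all tested genes, 50.4% had one above 0, and of the 47 tested initiation factor genes, eIF3 included, 66.0%. Summed over the complex, the level was 1751 and 1736 TPM in the knockdown libraries and 1650 and 1674 TPM in the control libraries. Abundant subunits weigh most in this sum, so it does not stand for every subunit. On average Eif3c had 315 TPM in knockdown and 265 TPM in control oocytes, and Eif3g had 293 and 254 TPM. In the other direction, Eif3h had 198 TPM in knockdown and 224 TPM in control oocytes. The knockdown libraries did not overlap the control libraries in Eif3c, Eif3g and Eif3j1, and did in the other 11. That is 3 of 14, where 34.9% of all tested genes had no overlap and 18.0% had both knockdown libraries above. The interval lay within 2-fold for all 14 tested eIF3 genes. The same held for 81.8% of all genes between a mean of 10 and 100 CPM, and for 2426 of 2427 above it.

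Levels of the subunits differed, with means over the 4 libraries from 25.4 TPM for Eif3j1 to 290.1 TPM for Eif3c and a median of 106.6 TPM. Summed exon length counts exons that oocytes may not use, so these levels are approximate. Eif3j1 and Eif3j2 encode the loosely bound j subunit and cannot be separated well, since 90.8% of the 50-base stretches of Eif3j2 occur in Eif3j1. Exons of Spg11 on the opposite strand also overlap 19.0% of those of Eif3j1. Summed, the pair had 76.0 and 68.7 CPM in the knockdown libraries and 66.8 and 65.1 CPM in the control libraries.

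**Figure D4:**
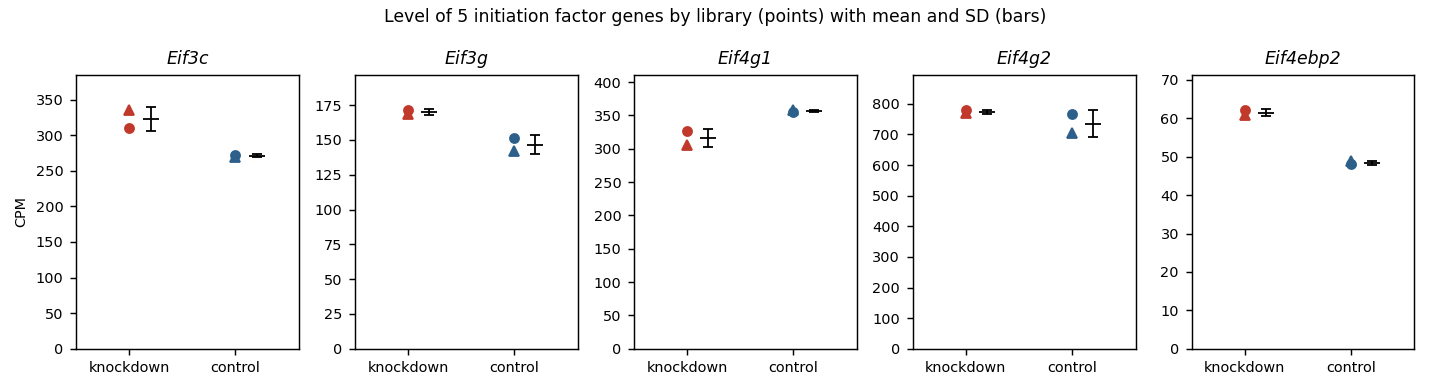
Level in CPM, on axes that start at 0, of 5 initiation factor genes, with knockdown libraries in red on the left and control libraries in blue on the right of each panel; bars give the mean and SD of 2 libraries. The 5 were picked from these same values, so their lack of overlap is not a separate observation. Eif3c, Eif3g, Eif4g2 and Eif4ebp2 are higher in both knockdown libraries and Eif4g1 is lower in both. Of all 47 tested initiation factor genes 29.8% had no overlap, and of all tested genes 34.9%. None of the 5 was called by edgeR, and DESeq2 called Eif3c.

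The factors of subunit joining all had intervals within 1.5-fold, 3 of 3, as did 97.8% of all genes above a mean of 100 CPM. Eif5, which makes eIF2 hydrolyse its GTP, had 363.2 and 360.5 CPM in the knockdown libraries and 351.8 and 337.1 CPM in the control libraries. Eif5b, the GTPase that joins the large subunit, had 573.9 and 631.6 CPM in the knockdown libraries and 557.3 and 587.5 CPM in the control libraries. Exons of Rev1 on the opposite strand overlap 16.9% of its exons. Eif6, which keeps the ribosomal subunits apart, had 256.5 and 290.8 CPM in the knockdown libraries and 285.4 and 304.5 CPM in the control libraries, with a log2 fold change of -0.11 (SE 0.09; edgeR adjusted p = 0.906).

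Eif5a encodes the hypusine-bearing factor that also helps elongation and termination, and Eif5a2 is its rarer paralogue. The first 120 coding bases are shown because this pair was very unequal in level; capitals mark the 30 bases that differ.
Eif5a2 (chromosome 3): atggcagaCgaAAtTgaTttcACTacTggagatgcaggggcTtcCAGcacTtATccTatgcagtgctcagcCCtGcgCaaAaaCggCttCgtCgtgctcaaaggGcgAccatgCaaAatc
Eif5a (chromosome 11): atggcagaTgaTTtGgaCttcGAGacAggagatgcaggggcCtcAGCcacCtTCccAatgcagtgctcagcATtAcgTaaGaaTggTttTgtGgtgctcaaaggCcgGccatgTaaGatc
Eif5a had 325.2 and 322.7 CPM in the knockdown libraries and 338.9 and 313.1 CPM in the control libraries. Eif5a2 had 49 and 49 counts in the knockdown libraries and 26 and 0 in the control libraries. Both knockdown libraries were above both control libraries, but the 95% interval of the log2 fold change ran from -1.02 to 5.09. Eif5a2 made up 0.167% and 0.200% of the pair per length in the knockdown libraries and 0.0802% and 0% in the control libraries.

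The promoters of these genes were compared with other promoters for their CG content, since CG-rich starts are typical of genes used in most cells. RefSeq windows of 250 bases before the outermost annotated start (GRCm38.p6) were found for 37 of the 50. Eif4e1b was not among the 37, while Eif2c5, with a count of 0 in every library, was. The 37 windows held a median of 19 CG dinucleotides (quartiles 15 and 27), against a median of 13 (quartiles 5 and 21) over 13199 genes with a window and a count. Eif1b had the most, 42, and Eif2c5 the fewest, 3. Eif4e and Eif2b5 had 7 each. The letters TATAAA, on either strand, stood in 2 of the 37 (5.41%), in Eif3b and Eif3f, against 8.30% of the 13199. This says nothing of which factors bind there.

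Genes of the later steps of translation were counted in the same way. Of 30 listed genes of elongation, termination and recycling, 28 were tested and 0 were called by edgeR (background 0.0063%) or DESeq2 (background 1.43%), with 0 at an unadjusted p under 0.05 in edgeR (background 5.51%). Log2 fold changes were above 0 in 15 and below 0 in 13, with a median of 0.05. Eefsec, the factor that brings selenocysteine tRNA to the ribosome, had the smallest p, with 53.8 ± 1.79 CPM in knockdown and 65.8 ± 1.45 CPM in control oocytes (SD, n = 2 each; edgeR adjusted p = 0.835). Of 24 listed partners of initiation factors, such as poly(A)-binding proteins and mTOR pathway kinases, 23 were tested and 0 were called by edgeR or DESeq2, with 0 at an unadjusted p under 0.05 in edgeR, against the same backgrounds, and with a median log2 fold change of 0.05. Rps6kb1, a kinase downstream of mTOR, had the smallest p of these, with 52.0 ± 0.937 CPM in knockdown and 40.1 ± 0.505 CPM in control oocytes (SD, n = 2 each; log2 fold change 0.37, edgeR adjusted p = 0.835).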

How the data were processed

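Poly(A)-selected RNA of 4 mouse oocyte libraries, 2 Parp12 knockdown and 2 control, had been sequenced, and groups come from the sample titles. The deposited values are raw counts of reads for each gene, with its summed exon length; per the file headers, the columns are those featureCounts writes. Per the submitters' processing notes, the mm10 build, STAR 2.7.5b, Trim Galore 0.6.4, DESeq2 1.28.1 and featureCounts 2.0.0 were used; settings, strand use and the treatment of multi-mapping reads were not given in the sources used here. It has 0 columns of other samples.

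Counts were tested in R 4.3.3 with edgeR 4.0.16 (filterByExpr defaults, minimum count 10 and total 15; TMM factors 0.991 to 1.01; robust glmQLFit and glmQLFTest, two-sided, group as the only term; Benjamini-Hochberg over 15868 genes at 0.05). Intervals are 95%. CPM are per 1000000 counts of the library, and TPM were computed from counts and summed exon length. Sequences shared between genes were sought as 50-base stretches of GENCODE vM21 transcripts, in which all 50 genes had the same coordinates as in the table. Alternatives were other scaling, other filters, a replicate block, each library left out, limma-voom (limma 3.58.1), DESeq2 1.42.0 and, added after the data were seen, edgeR's legacy fit. The tests were first tested on simulated data.

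The genes, their grouping by role, the lists and the tests were chosen with earlier results of these data known. Named in full are genes past the threshold in any fit, the member of each role group with the smallest p and that with the highest level per length, and all paralogue families; in each other list, the gene with the smallest p. Nothing says that replicates came from separate animals, so the p-values cover the spread of these libraries alone, which may be technical.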

Additional observations from a re-analysis of the deposited data

How the results depend on the processing

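Among all tested genes, edgeR called 1, and the number was 8 when both libraries of a group had to reach 1 CPM, 305 with DESeq2, 0 with limma-voom (747 at an unadjusted p under 0.05) and 1 to 2 with a library left out. Among initiation factor genes it was 0, and 1 with DESeq2, Eif3c. With a replicate block it was 1 among all tested genes and 0 among initiation factor genes; same-numbered libraries did not deviate together (correlation 0.0148), and the block changed no call. Their median log2 fold change, 0.05, was 0.0021 to 0.043 with a library left out. The share of Eif4e1b was 73.5% without length scaling, against 82.1%. Of 47 genes, 25 kept their direction in all 12 alternatives. Values near 0 turned sign: Eif1ax was -0.00023 with the legacy fit and -0.0015 with DESeq2, and Eif4e1b was -0.00077 with median-of-ratios factors, -5.5e-05 with DESeq2 and -0.0029 with limma-voom. With a library left out, the log2 fold change reversed within these ranges: Eif1 from -0.015 to 0.19, Eif1a from -0.30 to 2.06, Eif1ad from -0.30 to 0.24, Eif1ax from -0.16 to 0.15, Eif1b from -0.051 to 0.19, Eif2a from -0.032 to 0.064, Eif2b1 from -0.0057 to 0.12, Eif2b2 from -0.080 to 0.36, Eif2b5 from -0.31 to 0.050, Eif3a from -0.025 to 0.20, Eif3d from -0.10 to 0.37, Eif3e from -0.14 to 0.19, Eif3f from -0.066 to 0.18, Eif3j2 from -0.28 to 0.27, Eif3l from -0.022 to 0.12, Eif3m from -0.13 to 0.21, Eif4b from -0.061 to 0.028, Eif4e from -0.089 to 0.046, Eif4e1b from -0.039 to 0.043, Eif4e2 from -0.29 to 0.27, Eif4e3 from -0.0064 to 0.11 and Eif5a from -0.079 to 0.061. The cause was not tested. The low counts of Eif5a2, Eif1a and Eif4ebp1 limit what these libraries can show of them. A library left alone in its group was given the spread of the others.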
